A study of Homo sapiens with 6 samples.

Results

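Translation initiation factors are the proteins that bring the small ribosomal subunit, the initiator tRNA and the capped mRNA together, and eIF2 kinases are the enzymes that switch one of these factors, eIF2, off under stress. Their genes were taken as all rows of the deposited count table whose symbol begins with EIF and a digit from 1 to 6, which gave 56 of 20442 genes. The libraries came from T24, an established human cell line from a bladder carcinoma, treated for 24 h with a control siRNA (si-NC, 3 libraries) or with an siRNA against KNSTRN (si-KNSTRN, 3 libraries). KNSTRN encodes kinastrin, a spindle and kinetochore protein. All cells were of this one line with no labelled genetic change, the labels name 1 control and 1 KNSTRN siRNA, and the series' design text calls the 3 libraries of a group biological replicates.

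Initiation starts when eIF2, a complex of 3 different subunits, loads the initiator tRNA onto the small subunit in the company of eIF1, eIF1A, eIF3 and eIF5. The eIF4 factors bind the cap and unwind the leader of the mRNA, and the 4E-binding proteins hold back the cap-binding protein eIF4E until the kinase complex mTORC1 phosphorylates them. After the start codon is found, eIF5 and eIF5B release eIF2 and join the large subunit, and the exchange factor eIF2B recharges eIF2, a step that is blocked once an eIF2 kinase has phosphorylated the alpha subunit. Some of these mRNAs, like those of ribosomal proteins, begin with a C followed by a run of pyrimidines, a terminal oligopyrimidine start by which mTORC1 and LARP1 control their translation.

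Counted reads per library ranged from 16386799 to 20596074. Levels are in CPM, reads per 1000000 counted reads after TMM scaling of the libraries, and a count of 0 leaves room for a level of up to 3 reads, which is 0.146 to 0.183 CPM. Read counts of KNSTRN itself were 777, 663 and 762 under si-NC and 269, 245 and 226 under si-KNSTRN, with a log2 fold change of -1.62 (SE 0.07, edgeR adjusted p = 1.7e-11). Of 12 epithelial and urothelial markers, 8 passed the filter on low counts, and CDH1 and UPK3A had no read in any library. Of the 8, KRT7, KRT8 and KRT18 were abundant (mean levels of 843 to 1186 CPM), and PPARG rose from 28.7 to 44.8 CPM. KRT19, EPCAM, GATA3 and UPK1A were near the floor in both groups (0.175 to 1.64 CPM), and UPK1A fell (log2 fold change -2.20, edgeR adjusted p = 0.00024). The 3 mesenchymal markers together stood at 21560 to 23500 CPM in si-NC and at 17490 to 18430 CPM in si-KNSTRN libraries (marker sums are without TMM scaling), and their part in the results below was not tested. Of the leukocyte markers, CD3E had no read and PTPRC at most 2 reads in any library, while CD68 alone rose from 32.6 to 45.4 CPM. The fibroblast markers COL1A1 and PDGFRB were low (sum 14.2 to 15.7 CPM against 10.9 to 12.3 CPM), with at most 1 read of DCN. Within the groups, si-KNSTRN library 3 stood apart: its chi-square per degree of freedom over genes was 10.6 and 7.13 against libraries 1 and 2, and 2.21 to 4.49 in the other replicate pairs. In bulk RNA, fewer cells of a kind and less RNA per cell cannot be told apart.

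The starts of the mRNAs are shown first, because pyrimidine-rich starts were more frequent among the members that fell. The genes shown were picked with their values and starts known, as illustrations: 5 that fell and held such a run, 5 that rose without one, and then EIF3J and EIF4G2, which held a run and rose. Each line gives 30 bases of RefSeq sequence (GRCh38.p14), 5′ to 3′, in which base 13 is the annotated transcription start. Capitals mark a run of C and T that begins with a C within 5 bases of that start and is at least 5 bases long.
The first 5 genes fell in si-KNSTRN cells.
EIF2S3, chrX:24054944-24054973 (+): gtgatttCCTTCCTCTTTTggcaacatggc
EIF4B, chr12:53006444-53006473 (+): cctcatccgggtCTTTTgcgttctctttcc
EIF4A2, chr3:186783565-186783594 (+): gggcgccgctgtCTTTTCagtcgggcgctg
EIF3D, chr22:36529149-36529178 (-): cgcgcatgtttCCTCTTTTCCTggtttctc
EIF3F, chr11:7987325-7987354 (+): cgcttccgCCTCCTTCTTTCTCgacaagat
The next 5 genes rose and held no such run.
EIF2S1, chr14:67360316-67360345 (+): aggaggttccgcatgcgcggtggagtgagc
EIF5B, chr2:99337377-99337406 (+): cactgagaactcacaccatatgtgtcctgt
EIF4A1, chr17:7572813-7572842 (+): cgggcactccgccctagtttctaaggatca
EIF3I, chr1:32222395-32222424 (+): ttttccggtcttactcacgttgcggccttc
EIF2B2, chr14:75002909-75002938 (+): ctcgcccgccccggaagtgcaaactgtgtg
These exceptions rose and held a run.
EIF3J, chr15:44537135-44537164 (+): ctccgccgtgctaaCTCCTCgctagctctc
EIF4G2, chr11:10807979-10808008 (-): gttgtcggaagcaCTTCCCTaacttgcgcc

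Most initiation factor genes differed between the groups, in both directions and by small amounts. Of the 56 genes, 54 passed the filter, and the other two, EIF1AY and EIF4E1B, had no read in any library. With KNSTRN depleted, 27 of the 54 were higher, 15 lower and 12 not called by edgeR's quasi-likelihood test (threshold 0.05 after Benjamini-Hochberg adjustment over all 12650 genes tested). Over all genes tested, 31.2% were called higher and 31.3% lower, 62.5% in all, against 77.8% called among the initiation factor genes. The groups did not overlap in 40 of the 54 genes, and in 67.3% of all genes tested. The median log2 fold change was 0.16 over the 54 genes and -0.01 over all genes. The sizes of the changes were near those of other genes: the median absolute log2 fold change was 0.30, against 0.28 over all genes. A single member, EIF3CL, passed a 2-fold change, and its value rests on 1 library, as given with the eIF3 genes. Without si-KNSTRN library 3, 28 members were called higher and 14 lower, with a median of 0.18. Replicates lay close together, with a median coefficient of variation of 3.68% in si-NC and 4.19% in si-KNSTRN cells.

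**Figure D1:**
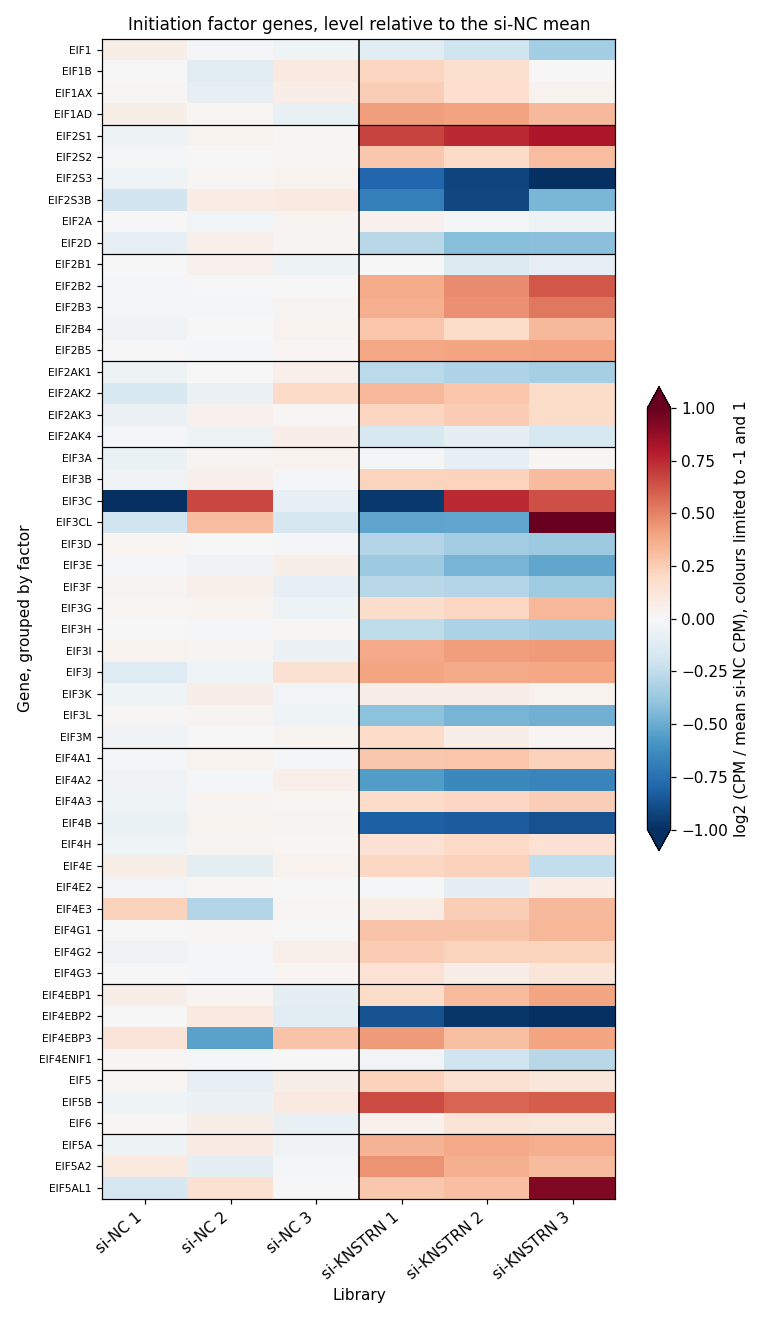
Heat map of the 54 initiation factor genes tested (rows, grouped by factor) in the 6 libraries (columns), coloured by the log2 ratio of each library's TMM-scaled CPM to the si-NC mean. EIF2S1 and EIF5B are high and EIF2S3, EIF4B and EIF4EBP2 low in all 3 si-KNSTRN libraries, whereas EIF3C and EIF3CL vary within a group.

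Counting the capitalised runs over all members gave the following. RefSeq start sequences matched 47 of the 56 genes, 45 of them tested; EIF2AK1, EIF2S2, EIF3A, EIF3CL, EIF3E, EIF3G, EIF3H, EIF3L and EIF4EBP1 were not matched. For each gene 1 listed start was used, and other starts were not searched. In several genes, among them EIF3B, EIF4ENIF1, EIF4G2 and EIF4G3, that start lies inside the gene and not at its outer end. The run was searched on the strand of the mRNA only. It was present in 17 of the 45 genes (37.8%), and 9 of these 17 were lower, 3 higher and 5 not called, with a median log2 fold change of -0.21. Of the 28 genes without it, 2 were lower, 20 higher and 6 not called (median 0.26). These counts include copy genes. EIF2S3B, among the 9 lower with the run, has nearly the start of EIF2S3 and may share its reads. EIF3C, whose counts scattered, is among the 5 not called with the run. EIF5AL1, a copy of EIF5A, is among the 20 higher without it. The exceptions were EIF3J, EIF4G2 and EIF5A2, which held the run and were higher, and EIF2AK4 and EIF4ENIF1, which lacked it and were lower. Across all 10272 tested genes with a start sequence, 22.8% held the run, as did 21.1% of all 27305 promoters of the table. There the split was smaller, with 33.2% of genes holding the run lower and 27.5% higher, against 30.5% and 32.3% of those without it. Of 65 cytosolic ribosomal protein genes, 50 held it, of which 34 were lower and none higher, and 9 of the 15 without it were lower and 1 higher.

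This search was designed after the fold changes had been seen and is a description. In a stricter reading, no C or T was allowed before the first C, unless that C was the first base of the search window. Such a reading can miss starts annotated inside a run. By this rule, 11 of the 45 genes held the run, with 5 lower and 3 higher. Among these, EIF2S3 and EIF1 (lower) and EIF5A2 (higher) have a C or T before the run and were counted through the exemption. Of the remaining 34 genes, 6 were then lower and 20 higher, and the medians were -0.01 and 0.21.

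Among start site selection factors, changes were small. EIF1 keeps the scanning ribosome open until it meets an AUG. Its mRNA stood at 440.4, 415 and 411 CPM in si-NC and at 392, 367 and 333 CPM in si-KNSTRN libraries 1 to 3. All si-KNSTRN libraries were below all si-NC libraries, and the log2 fold change was -0.21 (SE 0.06, adjusted p = 0.0032). EIF1AD, whose product is related to eIF1A and acts in small subunit assembly, went the other way, from 17.2, 16.8 and 15.7 CPM to 22.2, 21.9 and 20.7 CPM. It rose by 0.38 (SE 0.07, adjusted p = 0.00024) with no overlap of the groups, although its exons overlap those of the far more abundant gene BANF1 on the other strand. EIF1AX, the X-linked eIF1A gene, was called higher by 0.15 (adjusted p = 0.031) with overlapping groups. That call was lost on leaving out replicate 1 or 2 of si-NC (adjusted p = 0.063 and 0.15) or of si-KNSTRN (0.15 and 0.082) and with upper-quartile scaling (adjusted p = 0.12). EIF1B had a value of 0.13 (SE 0.07, adjusted p = 0.13) and was called without si-KNSTRN library 3 (0.19, adjusted p = 0.021).

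The 3 subunit genes of eIF2 went in opposite directions. EIF2S1 (chromosome 14, 67360328 to 67386516, GRCh38) encodes the alpha subunit, the target of the eIF2 kinases. It read 104, 110.2 and 109 CPM in si-NC and 172, 180.3 and 188 CPM in si-KNSTRN libraries 1 to 3. The groups lay far apart, and the log2 fold change was 0.74 (SE 0.05, adjusted p = 1.6e-09). Its exons overlap those of ATP6V1D on the other strand, whose own log2 fold change was 0.35. EIF2S2, the beta subunit gene, rose by 0.26 (SE 0.05, adjusted p = 0.00011). Of its 50-base windows, 21.3% also occur in EIF2S2P4, a copy not analysed here, whose part in the EIF2S2 counts was not tested. EIF2S3 (chromosome X, 24054956 to 24078810) encodes the gamma subunit, which binds GTP and the tRNA. It fell from 341, 355 and 359.7 CPM to 203, 186 and 174 CPM, again with no overlap (log2 fold change -0.91, SE 0.05, adjusted p = 6.0e-10). EIF2S3B, an autosomal copy, fell with it, from 8.03, 9.64 and 9.83 CPM to 5.71, 4.88 and 6.68 CPM (log2 fold change -0.67, SE 0.13). Of its 50-base windows, 41.0% also occur in EIF2S3, so that reads of both may have been exchanged and its value is uncertain.

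Per kilobase, EIF2S1 was the lowest of the 3 in si-NC cells, at 24.0 CPM per kilobase of transcript, against 128 for EIF2S2 and 123 for EIF2S3. In si-KNSTRN cells the values were 40.2, 153 and 65.6. Per kilobase of coding sequence, which leaves out the long 3′ untranslated region (UTR) of EIF2S1, they were 113, 338 and 248 in si-NC and 190.0, 404 and 132 in si-KNSTRN cells. EIF2S1 thus rose above EIF2S3 per kilobase of coding sequence and remained below it per kilobase of transcript. Of 2 factors that can carry tRNA without eIF2, EIF2D fell by 0.37 on the log2 scale (SE 0.06, adjusted p = 2.4e-05), whereas EIF2A had a value of -0.01 (SE 0.04, adjusted p = 0.89).

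All subunit genes of the exchange factor eIF2B other than EIF2B1 rose, 4 of 5 (80.0%, against 31.2% of all genes tested). EIF2B2, a regulatory subunit gene, had 49.5, 50.1 and 50.1 CPM in si-NC and 64.6, 69.3 and 76.8 CPM in si-KNSTRN libraries. EIF2B3, of the catalytic part, went from 24.8, 24.9 and 25.6 CPM to 32.2, 34.4 and 36.1 CPM. EIF2B5, which holds the exchange activity itself, went from 59.6, 58.8 and 60.3 CPM to 77.9, 78.5 and 78.8 CPM. In all of these the lowest si-KNSTRN library exceeded the highest si-NC library. Their log2 fold changes were 0.49 (SE 0.06), 0.45 (SE 0.07) and 0.40 (SE 0.04), with edgeR adjusted p of 1.7e-06, 1.8e-05 and 9.7e-07. EIF2B4 rose by 0.26 (SE 0.05), and EIF2B1, which encodes the regulatory alpha subunit, had a value of -0.07 (SE 0.05, adjusted p = 0.24).

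The 4 eIF2 kinase genes divided evenly. EIF2AK1 encodes HRI, the kinase of heme shortage and mitochondrial stress. It had 173, 179.6 and 186 CPM in si-NC and 149, 145 and 143 CPM in si-KNSTRN libraries, with no overlap (log2 fold change -0.30, SE 0.05, adjusted p = 2.2e-05). EIF2AK4 encodes GCN2, the sensor of uncharged tRNA. It went from 132, 128 and 139 CPM to 120.0, 125 and 119 CPM (log2 fold change -0.13, SE 0.05, adjusted p = 0.021). Its groups did not overlap, but the call was lost on leaving out si-NC 3 (adjusted p = 0.063), si-KNSTRN 1 (0.056) or si-KNSTRN 3 (0.052) and with library size as the sole scaling (adjusted p = 0.098).

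EIF2AK3 encodes PERK, the kinase of the endoplasmic reticulum. It rose without overlap from 25, 26.9 and 26.3 CPM to 30.3, 31.1 and 29.6 CPM (log2 fold change 0.22, SE 0.06, adjusted p = 0.0068). EIF2AK2 encodes PKR, the kinase activated by double-stranded RNA. It had 33.4, 35.6 and 42.3 CPM in si-NC and 46.7, 44.9 and 42.2 CPM in si-KNSTRN libraries. The third library of either group had nearly the same value, and the log2 fold change of 0.27 (SE 0.08, adjusted p = 0.0066) was not called without si-NC library 1 (0.19, adjusted p = 0.058). Per kilobase of coding sequence, the levels in si-NC cells were ordered EIF2AK1 (94.9 ± 3.42 CPM), EIF2AK4 (26.9 ± 1.13 CPM), EIF2AK2 (22.4 ± 2.77 CPM) and EIF2AK3 (7.78 ± 0.283 CPM; SD, n = 3). In si-KNSTRN cells EIF2AK2 (26.9 CPM) stood above EIF2AK4 (24.5 CPM). Per kilobase of transcript in si-NC cells, EIF2AK3 (5.61 CPM) stood above EIF2AK2 (3.69 CPM), so that only the place of EIF2AK1 and, after it, EIF2AK4 in the si-NC order was shared by both measures.

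**Figure D2:**
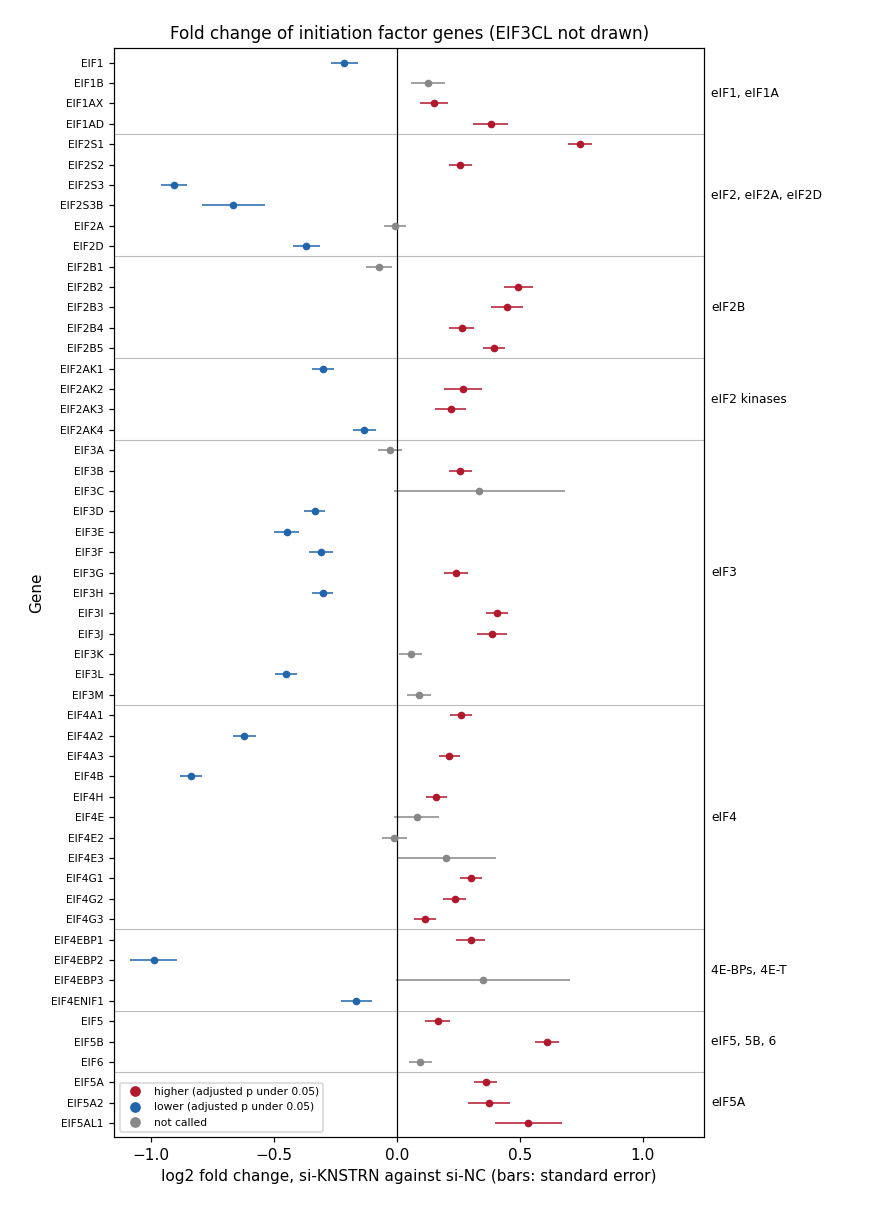
Log2 fold change of si-KNSTRN against si-NC with its standard error for 53 initiation factor genes (EIF3CL is not drawn), grouped by factor and coloured by the call at an adjusted p under 0.05. Members of eIF2, eIF3 and the eIF4 group lie on both sides of 0, while eIF2B, eIF5A and the joining factors have no called member below 0.

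eIF3 is the largest initiation factor, a scaffold on the small subunit. Of its 14 genes, 5 were higher, 5 lower and 4 not called. These shares, 35.7% higher and 35.7% lower, are near the 31.2% and 31.3% over all genes tested. The genes that fell were EIF3D, EIF3E, EIF3F, EIF3H and EIF3L. EIF3L had 565, 570.1 and 544 CPM in si-NC and 422, 405 and 401 CPM in si-KNSTRN libraries 1 to 3, and EIF3E had 630.4, 624 and 667 CPM against 499, 464 and 446 CPM. Both were separated by a wide gap, with log2 fold changes of -0.45 (SE 0.05 each, adjusted p = 2.6e-07 and 1.1e-06). EIF3D, which can itself bind the cap, fell by 0.33, and EIF3F and EIF3H, the subunits with an MPN fold, by 0.31 and 0.30. Of the 50-base windows of EIF3F, 45.1% also occur in EIF3FP3, a copy not analysed here, and its part in the EIF3F counts was not tested. The same holds for EIF3L, with 38.9% of windows shared with AL022311.1 at its own locus. EIF3E shares 14.9% with AC107075.1.

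The genes called higher were EIF3B, EIF3G, EIF3I, EIF3J and EIF3CL, of which EIF3CL is taken up with EIF3C below. EIF3I, a WD40 propeller subunit, had 185, 184 and 173 CPM in si-NC and 235, 241 and 242 CPM in si-KNSTRN libraries. Its groups did not overlap (log2 fold change 0.41, SE 0.04, adjusted p = 7.5e-07). EIF3B and EIF3G, which sit with EIF3I at the mRNA entry side, rose by 0.26 and 0.24, and the loosely bound subunit gene EIF3J by 0.39. EIF3A, the scaffold subunit gene, had a value of -0.03 (SE 0.05), EIF3K 0.06 (SE 0.05) and EIF3M 0.09 (SE 0.05, adjusted p = 0.12). EIF3M was called higher without si-KNSTRN library 3 (adjusted p = 0.033) and with library size alone (adjusted p = 0.031). Among subunits A, B, G and I, 3 of 4 genes were higher and none lower. Of D, E, F, H, K, L and M, 5 of 7 were lower and none higher. This division was chosen after the values had been seen and is a description, not a test of the structure of the complex. It leaves out EIF3C, EIF3CL and EIF3J, and other groupings of the subunits were not counted.

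The eIF3 genes that fell were also the most abundant. Per kilobase of coding sequence in si-NC cells, the 12 genes other than EIF3C and EIF3CL ran from 479 CPM (EIF3E) to 64.2 CPM (EIF3J). The 5 highest were EIF3E, EIF3H, EIF3L, EIF3F and EIF3D, the 5 that fell. In si-KNSTRN cells the range was 351 to 83.8 CPM between the same end members, so that the ratio of highest to lowest went from 7.46 to 4.19. Per kilobase of transcript, 4 of the 5 highest in si-NC cells were genes that fell, and the ratio went from 21.4 to 12. These levels and the fold changes share the si-NC libraries and are given as a description.

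**Figure D3:**
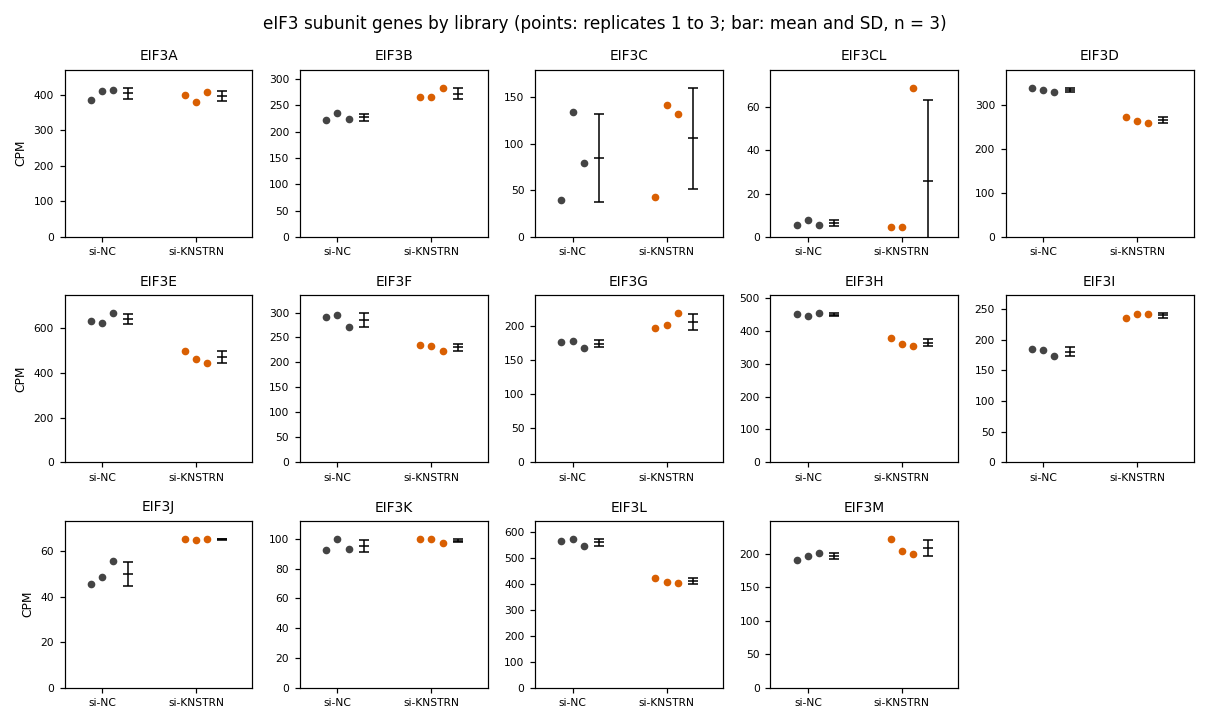
TMM-scaled CPM of the 14 eIF3 subunit genes in each library, with mean and SD (n = 3) beside the points and each axis starting at 0. EIF3D, EIF3E, EIF3F, EIF3H and EIF3L lie lower in all 3 si-KNSTRN libraries, EIF3B, EIF3G, EIF3I and EIF3J higher, and EIF3C and EIF3CL scatter.

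EIF3C and EIF3CL could not be read as the other subunits. They are near-identical copies on chromosome 16, in which 96.8% of the 50-base windows of EIF3C occur in EIF3CL and 98.7% of those of EIF3CL in EIF3C. The counts of EIF3C were 806, 2162 and 1453 under si-NC and 856, 2565 and 2464 under si-KNSTRN. The counts of EIF3CL were 111, 125 and 102 under si-NC and 86, 79 and 1283 under si-KNSTRN, so that a single library held its rise. Its log2 fold change of 2.05 (SE 0.73, adjusted p = 0.022) became -0.51 (adjusted p = 0.0072) without si-KNSTRN library 3, and limma-voom gave 0.83 (adjusted p = 0.36). Leaving out si-NC 1 or si-NC 3 also ended the call (adjusted p = 0.080 and 0.11).

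Summing both genes did not remove the scatter. Together they stood at 45.2, 142 and 85.4 CPM in si-NC and at 47.6, 147 and 202 CPM in si-KNSTRN libraries 1 to 3 (log2 fold change 0.55, SE 0.37, adjusted p = 0.20). Library 1 was the lowest of either group. For EIF3C alone the log2 fold change was 0.34 (SE 0.35, adjusted p = 0.42). It was 0.72 (adjusted p = 0.022) without si-KNSTRN library 1 and -0.016 without si-NC library 1, and 0.32 (adjusted p = 0.0072) with a replicate block. No direction is given for the C subunit. The coefficient of variation of EIF3C was 56.2% and 51.4% in the groups, and only EIF3C, EIF3CL, EIF4EBP3 and EIF5AL1 of the 54 genes exceeded 20% in either.

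In the eIF4 group the helicase paralogues parted. EIF4A1 (chromosome 17, 7572825 to 7579006) encodes the main RNA helicase of initiation, and EIF4A2 (chromosome 3, 186783577 to 186789897) its close relative. EIF4A2 had 487, 493 and 516 CPM in si-NC and 338, 318 and 316 CPM in si-KNSTRN libraries, a clear separation (log2 fold change -0.62, SE 0.05, adjusted p = 9.6e-09). EIF4A1 rose by 0.26 (SE 0.05, adjusted p = 8.9e-05). Per kilobase of transcript, EIF4A1 was at 650.0 and EIF4A2 at 260 CPM in si-NC cells and at 779 and 169 CPM in si-KNSTRN cells. Most of the sequence of EIF4A1 is shared with read-through genes at its own locus, and 23.0% of its 50-base windows with EIF4A1P10 elsewhere. These genes were not analysed here, and their part in the EIF4A1 counts was not tested. EIF4A3, the helicase of the exon junction complex, rose by 0.21 (SE 0.04).

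EIF4B (chromosome 12, 53006456 to 53042215), which stimulates the helicase, had the lowest adjusted p of all members. It had 531, 568 and 568 CPM in si-NC and 316, 312 and 304 CPM in si-KNSTRN libraries, well below any si-NC value. Its log2 fold change was -0.84 (SE 0.05, adjusted p = 2.5e-10). Of the 50-base windows of EIF4B, 22.5%, 18.0% and 15.5% also occur in EIF4BP6, EIF4BP7 and EIF4BP3. These copies were not analysed here, and their part in the EIF4B counts was not tested. EIF4H, which acts on the helicase in a like manner, rose by 0.16 (SE 0.04, adjusted p = 0.0045).

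Scaffold genes of the cap complex rose slightly. EIF4G1, the main scaffold, had 873, 882 and 876 CPM in si-NC and 1067, 1067 and 1106 CPM in si-KNSTRN libraries, with no overlap (log2 fold change 0.30, SE 0.04, adjusted p = 1.8e-05). EIF4G2, a scaffold without the eIF4E site, rose by 0.23 (SE 0.05). EIF4G3 had a value of 0.11 (SE 0.04, adjusted p = 0.035). Its call was lost without any 1 of 4 libraries, namely si-NC 1 and 2 and si-KNSTRN 1 and 3 (adjusted p = 0.079, 0.11, 0.11 and 0.069), and with upper-quartile scaling (adjusted p = 0.18).

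EIF4E, the cap-binding gene, was not called. It had 54.8, 49.4 and 54.0 CPM in si-NC and 60.9, 61.9 and 44.5 CPM in si-KNSTRN libraries. The first and second si-KNSTRN libraries were above and the third below all si-NC libraries. The log2 fold change was 0.08 (SE 0.09, adjusted p = 0.46), and without si-KNSTRN library 3 it was 0.22 (SE 0.06, adjusted p = 0.0024). EIF4E2, the 4EHP gene of cap-bound repression, had -0.01 (SE 0.05) and the scarce EIF4E3 0.20 (SE 0.20).

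The 4E-binding protein genes also parted. EIF4EBP2 (chromosome 10, 70404145 to 70428618) had 16.8, 18.0 and 15.5 CPM in si-NC and 9.20, 8.59 and 7.54 CPM in si-KNSTRN libraries. Its highest si-KNSTRN library was far below its lowest si-NC library, and the log2 fold change was -0.99 (SE 0.10, adjusted p = 1.9e-07). EIF4EBP1 (chromosome 8, 38030534 to 38060365) had 62.4, 60.9 and 56.2 CPM in si-NC and 67.9, 74.7 and 78.7 CPM in si-KNSTRN libraries. It rose without overlap (log2 fold change 0.30, SE 0.06, adjusted p = 0.00029). Per kilobase of coding sequence, EIF4EBP1 was at 168 and EIF4EBP2 at 46.3 CPM in si-NC cells, and at 207 and 23.3 CPM in si-KNSTRN cells.

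EIF4EBP3 had only 5 to 12 reads in a library (0.493, 0.311 and 0.549 CPM against 0.607, 0.554 and 0.592 CPM). A difference was not detectable at this depth (log2 fold change 0.35, SE 0.36, adjusted p = 0.42), and 71.8% of its windows belong to the read-through gene ANKHD1-EIF4EBP3 as well. EIF4ENIF1 encodes 4E-T, which carries eIF4E to the nucleus and to P-bodies. It had 49.7, 48.6 and 49.2 CPM in si-NC and 48.2, 42.8 and 40.5 CPM in si-KNSTRN libraries, and was called lower (log2 fold change -0.17, SE 0.06, adjusted p = 0.034). That call was lost on leaving out any 1 library other than si-KNSTRN 1 (adjusted p from 0.060 to 0.13), with library size alone (adjusted p = 0.086) and with DESeq2 (adjusted p = 0.055).

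Factors of subunit joining rose or were not called. EIF5B (chromosome 2, 99337389 to 99401326) encodes the GTPase that joins the large subunit. It had 209, 207 and 229 CPM in si-NC and 337, 322 and 326 CPM in si-KNSTRN libraries, far apart (log2 fold change 0.61, SE 0.05, adjusted p = 1.8e-08). REV1, which overlaps it on the other strand, had a value of 0.06 (SE 0.05). EIF5, the GTPase activator of eIF2, had 177, 165 and 182 CPM in si-NC and 205, 194 and 189 CPM in si-KNSTRN libraries. It rose by 0.17 (SE 0.05, adjusted p = 0.0079), a call lost without si-NC library 2 (adjusted p = 0.060). EIF6, which keeps unused large subunits apart, had a value of 0.10 (SE 0.05, adjusted p = 0.095) and was called with library size alone (adjusted p = 0.025).

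All 3 genes of eIF5A, the factor with the amino acid hypusine that helps ribosomes through difficult peptide bonds, were called higher. Over all genes tested, 31.2% were called higher. EIF5A had 627, 689 and 637 CPM in si-NC and 821, 847 and 838 CPM in si-KNSTRN libraries (log2 fold change 0.36, SE 0.05, adjusted p = 6.6e-06). The scarcer paralogue EIF5A2 had 13.1, 11.5 and 12.2 CPM in si-NC and 16.8, 15.7 and 15.3 CPM in si-KNSTRN libraries (0.37, SE 0.08, adjusted p = 0.0010). EIF5AL1 is an intronless copy that shares 11.6% of its windows with EIF5A, and 30.1% of the windows of EIF5A occur in EIF5AL1. Reads of both may have been exchanged. EIF5AL1 had 17.2, 21.5 and 19.2 CPM in si-NC and 23.2, 23.7 and 36.6 CPM in si-KNSTRN libraries. The highest of these, in si-KNSTRN library 3, stood apart, as it did for EIF3CL, and its value of 0.53 (SE 0.14, adjusted p = 0.0027) is uncertain.

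Ratios of 2 genes within a library do not depend on how libraries are scaled. The 6 pairs were chosen after the fold changes had been seen, so that their direction was known. Reads of EIF4A1 to EIF4A2 stood at 2.31, 2.37 and 2.19 in si-NC and at 4.07, 4.36 and 4.24 in si-KNSTRN libraries, a 1.84-fold change. EIF2S1 to EIF2S3 stood at 0.304, 0.310 and 0.302 in si-NC and at 0.848, 0.970 and 1.08 in si-KNSTRN libraries, a 3.15-fold change and the largest of the 6. The changes were 2.46-fold for EIF4EBP1 to EIF4EBP2, 2.20-fold for EIF4G1 to EIF4B, 1.81-fold for EIF3I to EIF3E and 1.43-fold for EIF2AK3 to EIF2AK1. In none of the 6 pairs did the groups overlap. That separation follows from the choice of pairs, so no test is given. These are ratios of reads, not of molecules.

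**Figure D4:**
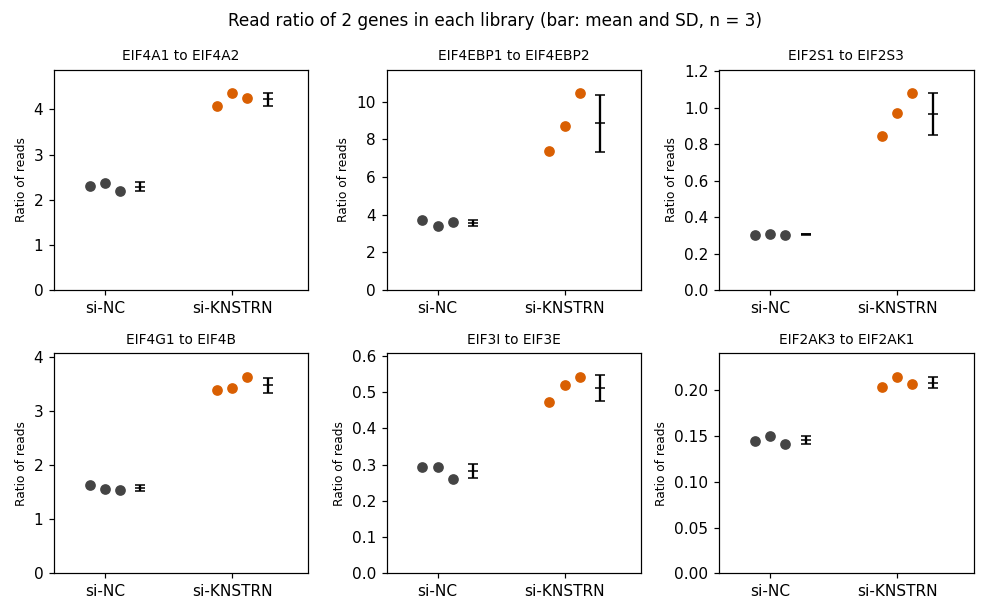
Ratio of the reads of 2 genes in each library, for 6 pairs of paralogues or partners, with mean and SD (n = 3) beside the points and axes starting at 0. All 3 si-KNSTRN libraries lie above all 3 si-NC libraries in each panel, with the widest gap for EIF2S1 to EIF2S3.

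The 3′ UTRs were searched for the word TGAGTA on the strand of the mRNA, in 1 GENCODE transcript per gene. How this word was chosen is not recorded, so it cannot count as independent of these data, and the counts are a description. UTR length was not taken into account. Its median was 1083 bases over all genes searched and 705.5 bases over the members searched. Over the 11919 genes searched, 1320 of the 3210 with the word were lower and 708 higher, against 2437 and 3044 of the 8709 without it. The word occurred in 13 of the 52 members searched, all with 50 or more bases of 3′ UTR, near the share of 26.9% over all genes searched. Of these 13, 4 were lower, 4 higher and 5 not called, and of the 39 without it, 11 were lower and 22 higher. The 4 that were lower were EIF4EBP2, EIF2S3, EIF4A2 and EIF1. For the 3 largest of these falls, the site with the longest match follows (GRCh38, strand +), with the word and a matching C before or A after it in capitals. EIF4EBP2 holds 3 sites and EIF2S3 holds 2, of which the others match the 6 bases alone.
EIF4EBP2, chr10:70426882-70426909: atgcagcctgCTGAGTAtgtgggtttca
EIF2S3, chrX:24077825-24077852: ataattctagaTGAGTAAcaaagatctt
EIF4A2, chr3:186789663-186789690: tgtcattagcCTGAGTAgaaaggccttt
EIF4B, EIF3E and EIF3L fell without the word in the transcript searched. EIF2AK2, EIF1AD, EIF5 and EIF1AX held it and were higher, EIF1AX with the 8 bases CTGAGTAA. EIF2AK2 held more sites than EIF4EBP2, some of them with the matching C before the word. Sequences of the siRNAs are not known here, and a match describes letters only.

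Partner genes of translation were read from 4 lists of 59 genes in all, 57 of them tested, with 26 higher, 18 lower and 13 not called (45.6% and 31.6%, against 31.2% and 31.3% of all genes tested). Among elongation and termination factors, 3 of 10 were higher and 5 lower (median log2 fold change -0.18). The release factor genes ETF1 and GSPT1 rose by 0.77 and 0.69 (SE 0.05 each), while the elongation factor genes EEF1A2 and EEF1G fell by 0.62 (SE 0.05) and 0.47 (SE 0.06). Among 22 cap, poly(A) and initiation partners, 7 were higher and 8 lower (31.8% and 36.4%, near the shares over all genes; median 0.00). DOHH, which makes the hypusine of eIF5A, rose by 0.92 (SE 0.08) and ABCF1 by 0.44 (SE 0.05). PAIP2B, an inhibitor of poly(A)-binding protein, fell by 1.68 (SE 0.18), and PDCD4, an inhibitor of the eIF4A helicase, by 1.21 (SE 0.08).

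Genes that control or read out eIF2 phosphorylation leaned upward, with 10 of 14 higher and 2 lower (71.4% and 14.3%, against 31.2% and 31.3% over all genes; median 0.36). CHAC1, a glutathione-degrading target of ATF4, rose by 1.65 (SE 0.22) and ATF5 by 0.73 (SE 0.09). ATF4, the transcription factor whose mRNA is translated when eIF2 is phosphorylated, stood at 338 ± 10.8 CPM in si-NC and 230.3 ± 10.5 CPM in si-KNSTRN cells (SD, n = 3) and fell by 0.55 on the log2 scale (SE 0.05, edgeR adjusted p = 4.5e-08). IMPACT, an inhibitor of GCN2, fell by 0.37 (SE 0.08). Phosphorylation itself was not measured. Of 11 tested genes in a list of mTORC1 and its control, 6 were higher and 3 lower (54.5% and 27.3%, median 0.15). This list also holds the S6 kinase genes RPS6KB1, not called, and RPS6KB2, called higher. Their products are substrates of mTORC1 and do not act upstream of the 4E-binding proteins. AKT1S1 and RHEB rose by 0.37 (SE 0.07) and 0.21 (SE 0.04), and DDIT4 and DEPTOR fell by 1.63 (SE 0.06) and 0.98 (SE 0.14). Genes of mTORC1 inhibitors thus went both ways, with AKT1S1 higher and DDIT4 and DEPTOR lower.

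**Figure D5:**
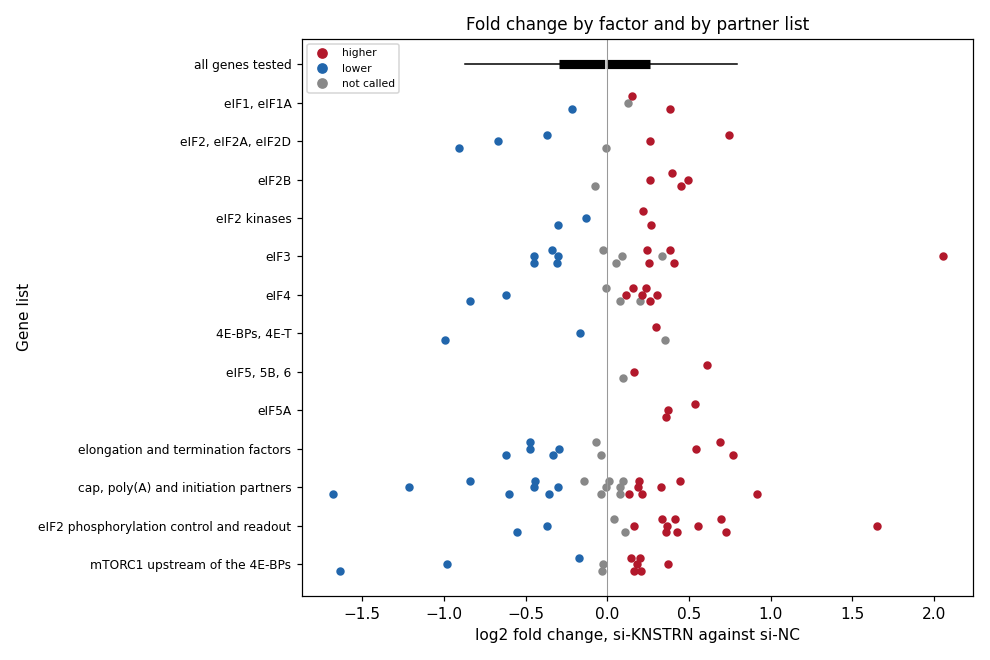
Log2 fold change of each tested gene by factor and by partner list, coloured by the call at an adjusted p under 0.05, with the 5th to 95th and 25th to 75th percentiles and median of all 12650 genes in the top row. Most points lie between -1 and 1, and the eIF2 control list has 10 of 14 genes called higher.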

How the data were processed

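The values are the authors' deposited raw read counts per gene symbol, 1 column per library. FastQC 0.11.5, fastp 0.20.0, HISAT2 2.0.1, featureCounts and the build GRCh38 are named in the submitters' processing notes. Whether counting used strand, how multiply aligned reads were handled and which annotation was used are not stated there, so that overlapping genes (19 of the 54 members tested overlap another tested gene) and near-identical copies may share reads. Reads carry no molecular identifiers, so count limits cover counting error only.

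Samples were grouped by their titles, 3 per group. The main test was the quasi-likelihood test (two-sided, group as the only term) of edgeR 4.0.16 in R 4.3.3, after TMM scaling and filterByExpr with a minimum count of 10. Adjustment over the 12650 genes followed Benjamini and Hochberg, and a gene was called under 0.05. edgeR's common biological coefficient of variation came to 5.47%. Standard errors follow from the fold change and the F statistic. Replicate pairs differed beyond sampling noise (chi-square per degree of freedom 2.21 to 10.6).

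The members, the lists, the alternatives and the rule for named genes were chosen with earlier results of these data known. Values in every library are given for the eIF2 kinases, EIF4E, the 4E-binding protein genes and, per factor, up to 3 called genes with separate groups and the largest change. From each partner list, up to 2 rises and 2 falls are named. Lengths, 3′ UTRs and copies (shared windows of 50 bases) came from 1 GENCODE release 29 transcript per gene, by APPRIS rank, support level and coding length. Starts and coordinates came from RefSeq (GRCh38.p14). Alternatives were other scalings, DESeq2 1.42.0, limma-voom (limma 3.58.1), other filters, a replicate block, each library left out, EIF3C and EIF3CL summed and, added after the data were seen, the members without 4 copy genes.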

Additional observations from a re-analysis of the deposited data

How the results depend on the processing

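Of the 42 members called, 35 (22 higher, 13 lower) kept call and direction under every one of the 16 alternatives that tested them, and the other 7 are EIF1AX, EIF2AK2, EIF2AK4, EIF3CL, EIF4ENIF1, EIF4G3 and EIF5. Members called higher numbered 23 to 29 and lower 13 to 15. Their median log2 fold change was 0.20 with library size alone and 0.12 with upper-quartile factors, where the median of all genes was 0.03 and -0.05, and from 0.13 to 0.19 when 1 library was left out. Values that changed sign with library size alone were EIF4E2 (0.026), EIF2A (0.028) and EIF3A (0.0080). Over the runs without 1 library, values ranged across 0 for EIF2A (-0.0346 to 0.0125), EIF4E2 (-0.0535 to 0.0298), EIF3C (-0.016, without si-NC 1, to 0.83) and EIF3CL (-0.51, without si-KNSTRN 3, to 2.57). The cause was not tested. Runs without 1 library kept at least 2 per group. The titles number replicates in both groups, but same-numbered libraries did not deviate together (r = -0.07, 0.07 and -0.04 over 8029 genes). With the replicate block, 27 members were higher and 15 lower, as without it: EIF4G3 was lost (adjusted p = 0.054) and EIF3C gained. Depth limits EIF4EBP3 and EIF4E3, which had at most 12 and 40 reads in a library.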

Other observations

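Initiation factor genes together took 1.18% to 1.22% of counted reads in si-NC and 1.24% to 1.27% in si-KNSTRN libraries. Summed over the tested genes of a factor, levels went from 249 ± 1.80 to 306 ± 9.97 CPM for eIF2B, from 596 ± 9.76 to 745 ± 8.01 CPM for eIF5, eIF5B and eIF6, and from 682 ± 34.4 to 879 ± 15.5 CPM for eIF5A (SD, n = 3). The sum of eIF3 went from 3689 ± 71.5 to 3357 ± 38.8 CPM and that of the eIF2 kinases from 376 ± 16 to 342 ± 7.02 CPM. The eIF3 sum includes EIF3C and EIF3CL, which together stood between 45.2 and 202 CPM by library, so that their scatter is part of it. The sum of the 4E-binding protein genes with EIF4ENIF1 was 126 ± 4.20 and 127 ± 0.710 CPM. These sums were not tested.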
